A study of Mus musculus with 7 samples.

Results

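Molecular chaperones and folding enzymes were followed in the hearts of mouse embryos that lacked Myc. The genes were taken by symbol: heat shock proteins (Hsp), J-domain proteins (Dnaj), subunits of the cytosolic chaperonin (Cct), protein disulfide isomerases (Pdia), and the FKBP and cyclophilin families of prolyl isomerases (Fkbp and Ppia to Ppih). The array names 48 such genes among 7413 named genes, and 32 of them were tested among 9066 units (named genes and unnamed targets). A tested gene had a detection score of 0.99 or higher on 3 or more of the 7 arrays. The tested genes were placed by the main location of their proteins, membranes included, which need not be the side on which they act. Of them 20 were placed in the cytosol or nucleus (with Dnajc13 of endosomes), 6 in the endoplasmic reticulum and 5 in mitochondria. The remaining gene, Hspg2, matches by its letters alone: it encodes perlecan, a proteoglycan of the basement membrane that is no chaperone. Hspbap1, counted with the cytosol, also matches by its letters: it is named as a partner of Hspb1 and is no heat shock protein itself.

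The study holds 4 Myc-null and 3 wild-type samples of embryonic hearts, each hybridised to its own array of 1 Illumina mouse reference BeadChip. The titles place every sample at E13.5 (embryonic day), and the source label gives E12.5-15.5. How Myc was deleted, at what stage and in what cells is not stated, and neither is whether litters differed within a group, so p-values measure the spread among these 7 samples. Although the extraction text names cardiac myocytes, the hearts went whole into the lysis reagent and no step that separates cells is described. Myc itself, a transcription factor of growth and proliferation, was detected on 0 of the 7 arrays, so the genotype labels have no check in its signal. On the chip, Myc-null hearts occupied positions E to H and wild-type hearts A to C, and position and genotype cannot be told apart.

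Chaperones bind unfolded stretches of other proteins and release them in steps that mostly cost ATP. In the cytosol Hsp70 proteins receive new chains with the help of J-domain partners, pass some of them to Hsp90, and leave actin and tubulin to the barrel-shaped chaperonin TRiC. The endoplasmic reticulum has its own Hsp70, the product of Hspa5 (BiP), which also holds the sensors of the unfolded protein response inactive, and mitochondria have Hsp70 (Hspa9) and the Hsp60 and Hsp10 ring (Hspd1 and Hspe1). Working heart muscle makes much contractile protein and holds many mitochondria, and small heat shock proteins such as Hspb1 are abundant in it.

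Of 7 named cardiomyocyte markers 6 passed the detection filter, all but Ryr2, and their summed signal was 62318 to 95082 in Myc-null and 60251 to 79743 in wild-type hearts. Markers of other cells were also present. Summed signals of the named and tested markers were 84731 to 122152 in Myc-null against 77480 to 92921 in wild-type hearts for 5 of 5 erythroid genes, and 8219 to 15169 in Myc-null against 12728 to 19055 in wild-type hearts for 6 of 7 mesenchymal genes (Postn was undetected). For 3 of 4 cartilage genes (Col11a1 was undetected) they were 310 to 2494 in Myc-null against 348 to 721 in wild-type hearts. They were 2351 to 2703 in Myc-null against 1339 to 2553 in wild-type hearts for 3 of 3 endothelial genes, and 1378 to 2186 in Myc-null against 1566 to 2469 in wild-type hearts for 6 of 6 epicardial genes. For 2 of 4 leukocyte genes (Cd68 and Ptprc were undetected) they were 264 to 297 in Myc-null against 286 to 295 in wild-type hearts. Myc-null 2 had the highest erythroid and cartilage sums and Myc-null 4 the highest cardiomyocyte sum. Wild-type 3 had the highest mesenchymal and epicardial sums and the lowest cardiomyocyte, erythroid and endothelial sums. A sum follows its brightest genes, and the low endothelial sum follows Emcn (448), while Nfatc1 (275) was at its highest on wild-type 3. The median log2 deviation of the markers on wild-type 3, from each gene's median over the arrays, was 0.80 for mesenchymal and 0.43 for epicardial genes. For cardiomyocyte, erythroid and endothelial genes it was 0.00, 0 and 0.11. The part of these markers in the differences below was not tested. In whole hearts, fewer cells of a type and less RNA per cell cannot be told apart.

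Wild-type 3 stood apart from the other 6 arrays. Its correlations with the other arrays over the tested units were 0.926 to 0.938, while other pairs reached 0.991. Myc-null 2 was the next most distant array, with a highest correlation of 0.973. On it 92 units lay at least 1 log2 unit below and 150 above their median, against 791 and 89 on wild-type 3. The 18S ribosomal RNA signal of wild-type 3 was 2682, against 1523 on Myc-null 2 and 702 to 914 on the other arrays. Of the 32 chaperone and folding genes, 7 (21.9%) lay at least 1 log2 unit below their median over the arrays on wild-type 3, against 8.72% of all units. These were Hsp90aa1 (-3.26), Dnajc13 (-1.77), Dnajc2 (-1.64), Hspa9 (-1.57), Ppid (-1.52), Dnajc21 (-1.47) and Hspd1 (-1.20), which include the main mitochondrial Hsp70 and Hsp60 and the inducible cytosolic Hsp90. Signals under a floor of 58.2 were set to it, so a gene with a median near the floor could not lie that far below. Such dim genes are part of both shares, in proportions that were not compared. Wild-type 3 was the lowest array for 17 of the 32 genes (53.1%, against 32.2% of units), and Myc-null 4 was the highest for 16 (against 23.1% of units). The differences of the genes are therefore given with all arrays and without wild-type 3.

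**Figure D1:**
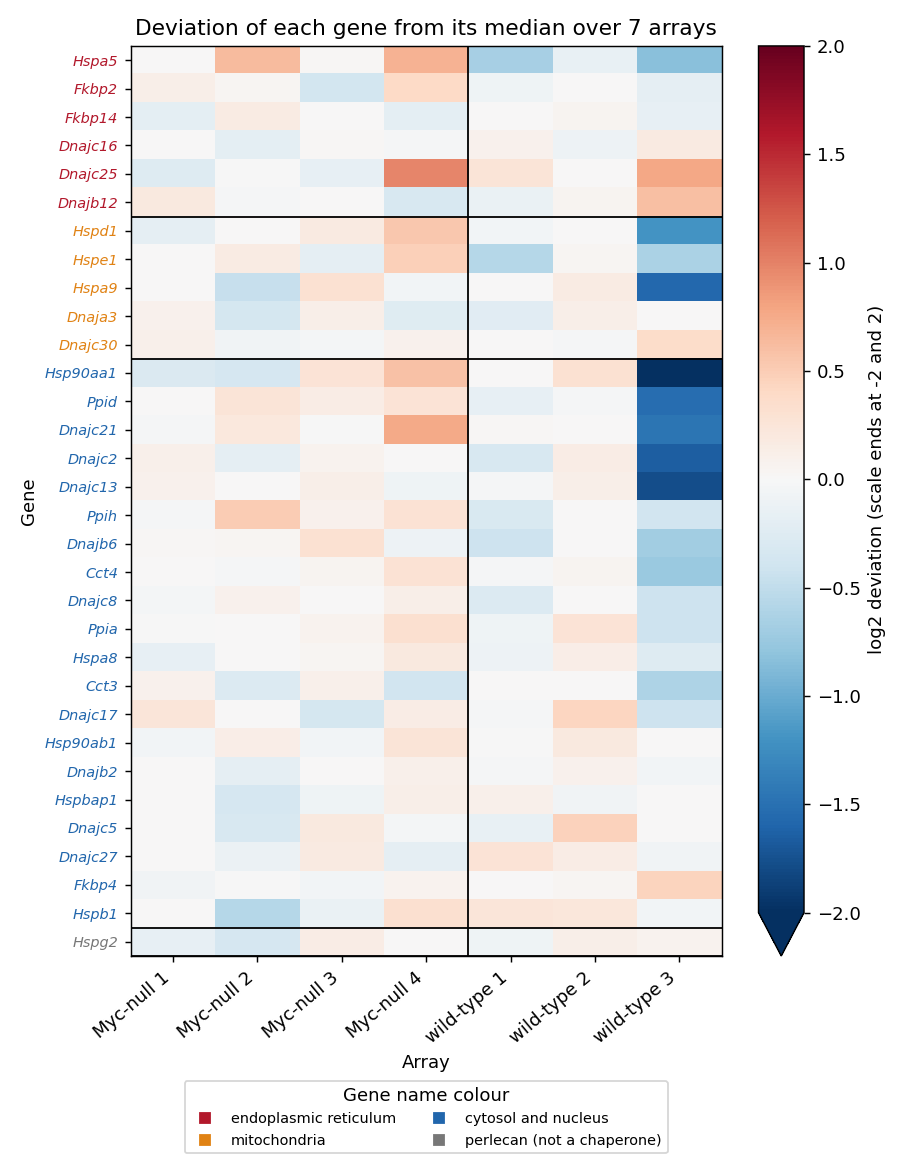
Deviation of each of the 32 tested genes (rows, grouped by compartment) from its own median over 7 arrays, in log2 units, with the Myc-null arrays left of the wild-type arrays; blue is lower and red is higher than the median. The darkest blue cells are in the wild-type 3 column, down to -3.26 for Hsp90aa1, and the top row shows Hspa5 higher on Myc-null 2 and 4 than on the wild-type arrays.

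No chaperone or folding gene passed the threshold, and neither did any other unit. The limma test called 0 of the 32 genes and 0% of the 9066 units at an adjusted threshold of 0.05, and none of the 32 came below 0.76. Before adjustment 3 of the 32 genes (9.38%) had p under 0.05, against 485 units (5.35%). All 3, Hspa5, Ppih and Dnajb6, had higher means in Myc-null hearts (3.39% of units did so at this p, and 1.96% had lower means). This count was 7 without wild-type 2, where the units at this p also rose, to 718 of 9066. It was 1 without wild-type 1 (446 units), without Myc-null 2 (311 units), without Myc-null 4 (422 units) or without wild-type 3 (357 units, 3.94%). Among the 485 units 63.3% were higher in Myc-null hearts, a share that was 43.6% after quantile normalization, 41.9% after median scaling and 52.9% with raw signals normalized by neqc. The 2 groups did not overlap for Hspa5 and Ppid (6.25% of the 32 genes, against 6.83% of units, of which 4.07% were higher and 2.76% lower), and both genes were higher on every Myc-null array. A positive difference (Myc-null minus wild-type) was found for 19 of the 32 genes (59.4%), against 54.5% of units. Without wild-type 3 it was 16 of 32 (against 55.1% of units), and 9 genes changed sign.

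**Figure D2:**
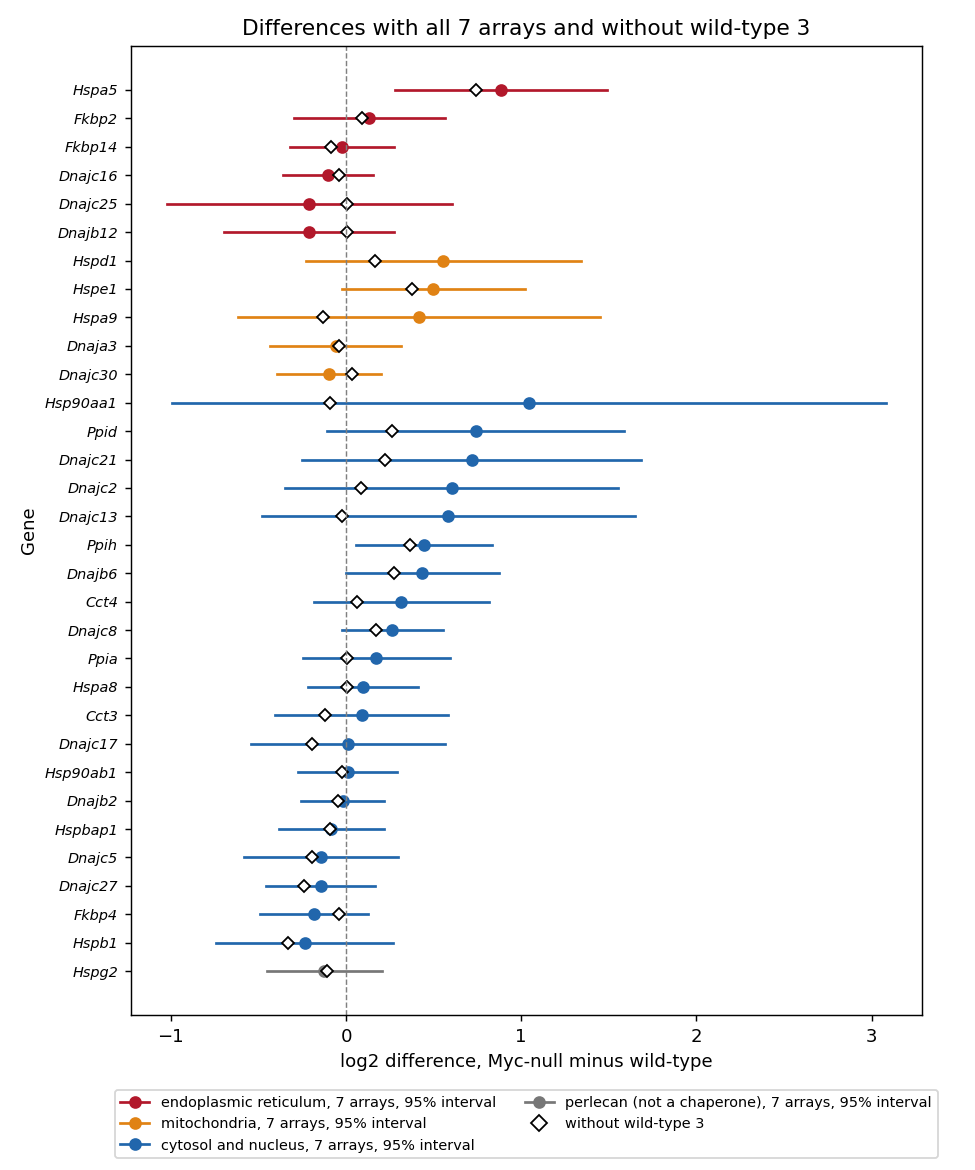
Log2 difference (Myc-null minus wild-type, horizontal axis) of each of the 32 genes, by compartment. Filled points and bars are the limma estimate and its 95% interval from 7 arrays, and open diamonds are the estimate without wild-type 3, which lies near 0 for most genes and at 0.74 for Hspa5.

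Hspa5 had the smallest p of the 32 genes. BiP, its product, is the most abundant chaperone of the endoplasmic reticulum lumen, and its transcription is the classical readout of the unfolded protein response. Its normalized signal, in arbitrary units that compare arrays but not genes, was 264, 407, 267 and 428 on Myc-null arrays 1 to 4, against 167, 238 and 148 on wild-type arrays 1 to 3. Every Myc-null array lay above every wild-type array, but the gap between the nearest, 264 on Myc-null 1 and 238 on wild-type 2, was small beside the spread within either group. The mean was 341 ± 88.4 in Myc-null and 184 ± 47.5 in wild-type hearts (SD, n = 4 and 3). The log2 difference, Myc-null minus wild-type, was 0.88 (SE 0.25, 95% interval 0.28 to 1.49), or 1.84-fold, with an unadjusted p of 0.011 and an adjusted p of 0.76 in limma. The exact 2-sided permutation p was 0.0286, the smallest that the 35 splits of 7 arrays can give. Without wild-type 3 the difference was 0.74, and over 21 alternative settings it ran from 0.64 to 1.08, positive in all 21. In the authors' deposited table the difference score of Hspa5 was 25.4, the highest of the 32 genes. That table does not name its direction, which was read from the arrays: all 319 tested units with a score of 13 or more (3.52% of units) had higher Myc-null means, and Ppih (20.1) was the only other gene of the 32 among them.

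Hspa5 lies on chromosome 2 (GRCm38.p6, chr2:34772090-34776529, plus strand). Its promoter is shown because it holds the element through which the unfolded protein response factor ATF6 acts, the endoplasmic reticulum stress element (ERSE, CCAAT and CCACG with any 9 bases between them, searched on both strands). The sequence is from RefSeq, the window is chr2:34771840-34772139, plus strand, and capitals mark the match, which begins at -65 from the start of the gene.

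Hspa5 promoter: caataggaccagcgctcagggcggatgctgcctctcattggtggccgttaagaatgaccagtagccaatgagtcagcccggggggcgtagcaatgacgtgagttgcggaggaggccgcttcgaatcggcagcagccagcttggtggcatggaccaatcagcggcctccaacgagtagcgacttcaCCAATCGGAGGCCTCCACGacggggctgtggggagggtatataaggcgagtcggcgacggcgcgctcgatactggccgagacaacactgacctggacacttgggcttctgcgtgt

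Promoter windows of 300 bases were found in the RefSeq table for 23 of the 32 tested genes. The full ERSE was present in 37 of 27025 genes of that table (0.14%), and among the 23 it was in Hspa5 alone, 1 of 6 endoplasmic reticulum genes. The match describes the sequence and says nothing on whether a factor was bound in these hearts.

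The other endoplasmic reticulum genes had differences from -0.21 to 0.13. Fkbp2, a prolyl isomerase of the lumen, had signals of 882, 838, 632 and 1078 in Myc-null against 769, 816 and 724 in wild-type hearts, a difference of 0.13 (SE 0.18, and 0.09 without wild-type 3). Fkbp14, an isomerase that acts on procollagen, had 540, 699, 620 and 544 in Myc-null against 621, 645 and 556 in wild-type hearts, a difference of -0.02 (-0.08 without wild-type 3). Dnajb12, a membrane-bound J-domain protein that faces the cytosol, had 90.3, 78.0, 79.2 and 63.6 in Myc-null against 72.3, 82.0 and 120 in wild-type hearts (-0.21, and 0.00 without wild-type 3). The groups overlapped for all 3 genes. Dnajc16, another J-domain protein of the membrane, differed by -0.10 (SE 0.11, and -0.04 without wild-type 3), and its second target by -0.05 with and without that array. Dnajc25 was dim and scattered, with 71.3, 84.3, 76.2 and 168 in Myc-null against 102, 85.2 and 146 in wild-type hearts (-0.21, SE 0.34). Its highest values were on Myc-null 4 and wild-type 3, and the difference was 0.01 without wild-type 3. Across the 6 endoplasmic reticulum genes 2 were higher and 4 lower in Myc-null hearts, with a median difference of -0.06 (0.01 without wild-type 3), against 0.03 over all units.

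A further list held other genes of endoplasmic reticulum folding and the unfolded protein response. Of 36 listed genes 14 are named on the array and 10 were tested, of which 4 were higher and 6 lower in Myc-null hearts, with a median of -0.03. Without wild-type 3, 1 of the 10 was higher and the median was again -0.03. None of the 10 passed the adjusted threshold in limma, and none had an unadjusted p under 0.05. The smallest p values were those of Derl2, a membrane protein of the degradation of misfolded proteins (-0.18, and -0.09 without wild-type 3), and Txndc5, a disulfide isomerase (-0.15, and 0.00 after rounding without wild-type 3). Xbp1, the transcription factor made active by splicing in the unfolded protein response, differed by -0.03 (-0.02 without wild-type 3), and it was picked out after its value was seen. Canx, Dnajb9, Ern1 and Ero1b were detected on no array. The collagen folding list had 1 of 4 tested genes higher, with all arrays and without wild-type 3. Its smallest p belonged to P3h1, a prolyl hydroxylase of collagen, with 205, 199, 179 and 177 in Myc-null against 235, 225 and 288 in wild-type hearts. The groups did not overlap, and the difference was -0.39 (unadjusted p = 0.016, adjusted p = 0.76 in limma), or -0.28 without wild-type 3. P4ha3, another collagen prolyl hydroxylase, differed by -0.12 (-0.19 without wild-type 3). The collagen chains themselves, clients of this machinery, had 3 of 7 tested genes higher with a median of -0.04. Without wild-type 3 it was 7 of 7 (against 55.1% of all units) and 0.43. Their median log2 deviation from each gene's median over the arrays was 1.15 on wild-type 3 and 0.83 on Myc-null 2. On the other Myc-null arrays it was -0.16 to 0, so the values without wild-type 3 lean on Myc-null 2. Their smallest p values were those of Col2a1 (0.74, SE 1.02, unadjusted p = 0.49 in limma, and 1.3 without wild-type 3) and Col9a1 (0.45, unadjusted p = 0.56, and 0.78 without wild-type 3).

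**Figure D3:**
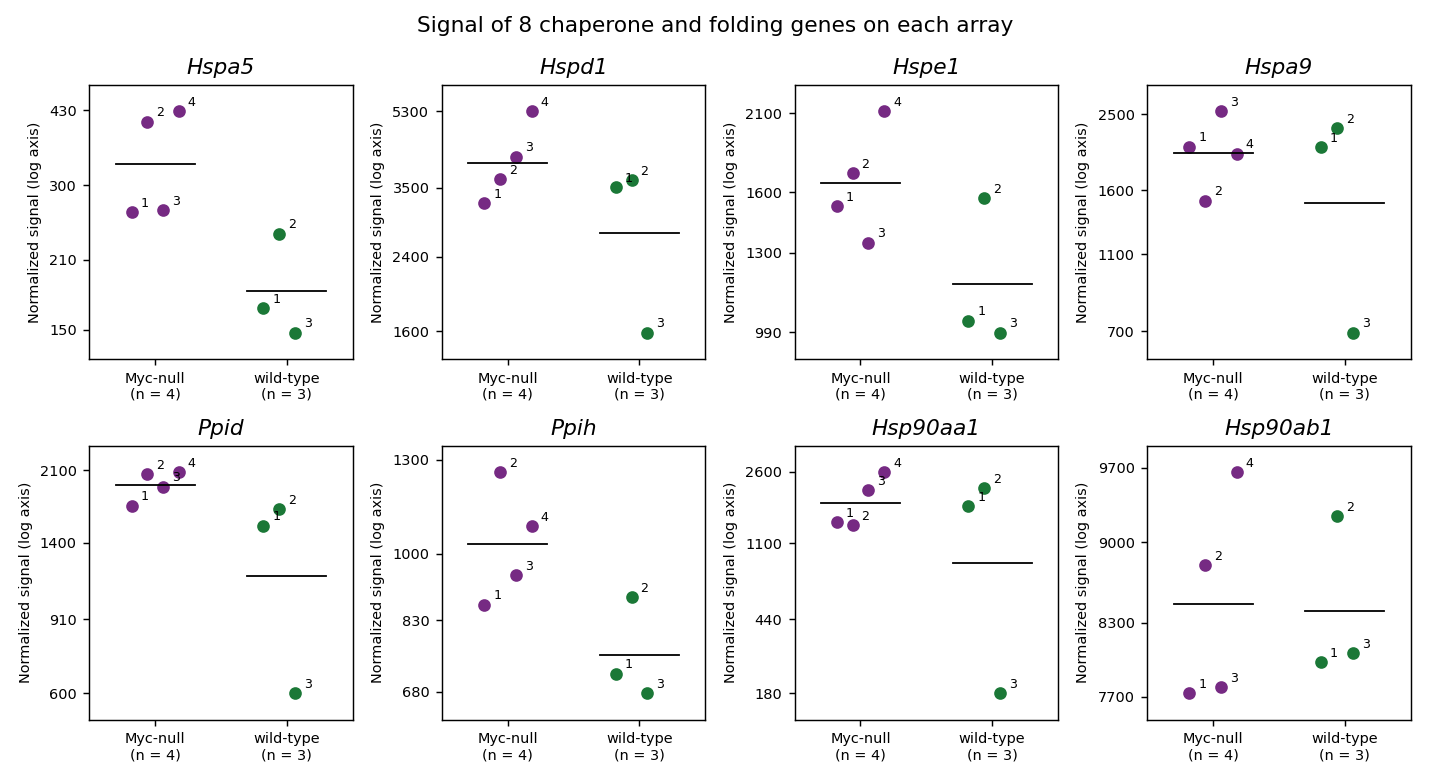
Normalized signal (log axis, a separate range in each panel) of 8 genes on each Myc-null (purple, left) and wild-type (green, right) array; numbers are replicate numbers and lines are geometric means. Hspa5 and Ppid do not overlap between the groups, and wild-type 3 is the lowest array in every panel but that of Hsp90ab1.

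The mitochondrial genes split into the matrix chaperones and their J-domain partners. Hspe1, the Hsp10 lid of the folding chamber, had 1526, 1709, 1346 and 2112 in Myc-null against 1029, 1567 and 989 in wild-type hearts. Only Myc-null 1 and Myc-null 3 lay below the highest wild-type value, that of wild-type 2. The difference was 0.50 (SE 0.22, unadjusted p = 0.059, adjusted p = 0.76 in limma) and 0.38 without wild-type 3. Hspd1, the Hsp60 ring itself, had 3215, 3665, 4146 and 5300 in Myc-null against 3513, 3644 and 1590 in wild-type hearts. Wild-type 1 and 2 lay inside the Myc-null range, and the difference of 0.56 (SE 0.33) was 0.17 without wild-type 3. Hspa9, the matrix Hsp70 that also pulls proteins through the inner membrane, had 2065, 1505, 2541 and 1985 in Myc-null against 2062, 2302 and 695 in wild-type hearts. Its difference of 0.42 (SE 0.43) was -0.13 without wild-type 3. The J-domain proteins Dnaja3 (-0.06, and -0.04 without wild-type 3) and Dnajc30 (-0.09, and 0.03 without it) had overlapping groups. With all arrays the 5 mitochondrial genes had 3 higher and a median of 0.42, which was 0.03 without wild-type 3 and 0.71 without wild-type 2. Of the listed mitochondrial co-chaperones and proteases 2 of 17 were tested, the protease subunit Afg3l1 (-0.22, and -0.11 without wild-type 3) and the nucleotide exchange factor Grpel2 (-0.13, and -0.29 without it).

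Hspd1 and Hspe1 lie head to head on chromosome 1 (GRCm38.p6, Hspd1 chr1:55077833-55088243, minus strand, and Hspe1 chr1:55088148-55091317, plus strand), so the genes of the ring and its lid have overlapping promoters. RefSeq gives Hspd1 a pair of start sites. The window of its first start has 285 bases in common with that of Hspe1, read on opposite strands, and the window of its second start has 4. The Hspe1 window (chr1:55087898-55088197, plus strand) is shown because it holds a heat shock element, the site of the heat shock factors. The letters searched, on both strands, were GAA, TTC and GAA, or TTC, GAA and TTC, with any 2 bases between neighbours. In this window 2 overlapping matches, in capitals, begin at -89 and -84 from the start of Hspe1.

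Hspe1 promoter: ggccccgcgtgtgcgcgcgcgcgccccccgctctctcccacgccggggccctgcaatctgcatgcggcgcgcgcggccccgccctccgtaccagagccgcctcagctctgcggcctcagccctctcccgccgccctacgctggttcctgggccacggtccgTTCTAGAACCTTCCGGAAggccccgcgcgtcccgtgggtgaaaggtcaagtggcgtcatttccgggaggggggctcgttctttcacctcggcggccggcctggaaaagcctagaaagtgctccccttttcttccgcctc

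The window of the second annotated start of Hspd1 (chr1:55088194-55088493, minus strand) is shown for its E-box CACGTG, the sequence that Myc with its partner Max is known to bind. The match is in capitals and begins at -80 from that start.

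Hspd1 promoter at the second start: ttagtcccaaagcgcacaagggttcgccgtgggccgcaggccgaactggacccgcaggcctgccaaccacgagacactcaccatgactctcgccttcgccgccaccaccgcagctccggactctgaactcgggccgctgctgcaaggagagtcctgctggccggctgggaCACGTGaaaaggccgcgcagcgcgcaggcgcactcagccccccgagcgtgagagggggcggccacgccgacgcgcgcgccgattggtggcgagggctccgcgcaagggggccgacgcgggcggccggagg

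A heat shock element of these letters was present in 179 of 27025 genes (0.66%) and in 3 of the 23 tested genes with a window, Hspd1, Hspe1 and Dnajb6. Hspd1 and Hspe1 are counted for the same bases, read on opposite strands of the window they share. The E-box was present in 2187 genes (8.09%) and in 4 of the 23 (17.39%), Hspd1, Dnajc8, Dnajc16 and Hspbap1. Their differences without wild-type 3 were 0.17 for Hspd1, 0.17 for Dnajc8, -0.04 for Dnajc16 and -0.09 for Hspbap1.

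In the cytosol the smallest p belonged to a prolyl isomerase of the cyclophilin family. Ppih, a cyclophilin of the spliceosome, had 868, 1255, 942 and 1080 in Myc-null against 716, 886 and 677 in wild-type hearts. Only Myc-null 1 fell below the highest wild-type array, and the difference was 0.44 (SE 0.16, unadjusted p = 0.031, adjusted p = 0.76 in limma), or 0.37 without wild-type 3. Ppid, the cyclophilin that binds Hsp90 in steroid receptor complexes, had 1722, 2053, 1916 and 2080 in Myc-null against 1538, 1691 and 600 in wild-type hearts. The groups did not overlap with or without wild-type 3 (without it 7.53% of units were higher on every Myc-null array), although Myc-null 1 and wild-type 2 lay close together. Its difference of 0.74 (SE 0.36, unadjusted p = 0.078 in limma, exact permutation p = 0.0286) was 0.26 without wild-type 3, the array at 600. Ppia, the abundant cyclophilin A, had 17381, 17396, 18248 and 21756 in Myc-null against 16467, 20914 and 13044 in wild-type hearts, a difference of 0.17 that was 0.00 without wild-type 3.

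Hsp90aa1, the inducible cytosolic Hsp90, had 1413, 1363, 2086 and 2591 in Myc-null against 1722, 2130 and 180 in wild-type hearts. Wild-type 1 and 2 lay within the Myc-null range, and wild-type 3 lay far below every other array. The difference of 1.04 was the largest of the 32 genes, yet its SE was 0.86 and its unadjusted p 0.263 in limma, and without wild-type 3 it was -0.09. Hsp90ab1, the constitutive Hsp90, did not share the low value: it had 7729, 8794, 7778 and 9658 in Myc-null against 7977, 9237 and 8047 in wild-type hearts. Its difference was 0.01 (SE 0.12, 95% interval -0.27 to 0.29), or -0.02 without wild-type 3, and Hsp90ab1 was set beside its relative after its values were seen. Other targets of Hsp90ab1 gave -0.19 and -0.12 (-0.29 and -0.17 without wild-type 3). Hspa8, the constitutive Hsp70, had 18044, 20126, 20680 and 23088 in Myc-null against 18675, 22041 and 16831 in wild-type hearts, a difference of 0.10 (0.01 without wild-type 3, and 0.16 at another target with and without that array). Hspa8, Hsp90aa1 and Ppia have many near-identical pseudogenes, and the files do not show whether a target separates them.

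The 2 tested subunits of the cytosolic chaperonin showed no separation of the groups. Cct4 had 2953, 2898, 3065 and 3611 in Myc-null against 2895, 3073 and 1769 in wild-type hearts, a difference of 0.32 (SE 0.21) that was 0.06 without wild-type 3. Cct3 had 1687, 1312, 1699 and 1217 in Myc-null against 1591, 1581 and 1033 in wild-type hearts, a difference of 0.09 that was -0.12 without wild-type 3. Both subunits had wild-type 3 as their lowest array. A list of chaperonin partners, prefoldin and tubulin cofactors had 7 of 7 tested genes higher in Myc-null hearts, of 17 listed. Of all units 54.5% were higher. The median of the list was 0.33 (6 of 7 and 0.09 without wild-type 3). Naca (0.45, and 0.48 without wild-type 3) and Btf3 (0.29, and -0.04 without it) are among the 7. Both are nascent chain factors at the ribosome and not helpers of the chaperonin. None of the 7 passed the adjusted threshold. The prefoldin subunit Pfdn4 had 227, 302, 242 and 341 in Myc-null against 162, 220 and 156 in wild-type hearts, with no overlap, and its difference was 0.63 (unadjusted p = 0.015, adjusted p = 0.76 in limma), or 0.54 without wild-type 3. Vbp1, another prefoldin subunit, had 407, 543, 537 and 710 in Myc-null against 370, 387 and 219 in wild-type hearts, again with no overlap. Its difference was 0.77 (unadjusted p = 0.023, adjusted p = 0.76 in limma), and 0.51 without wild-type 3.

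J-domain proteins start the ATP cycle of Hsp70, and those of the cytosol ranged from -0.15 (Dnajc27) to 0.72 (Dnajc21). Dnajb6, which keeps aggregation-prone proteins in solution, had 124, 125, 150 and 114 in Myc-null against 91.7, 122 and 75.5 in wild-type hearts. Myc-null 4 fell below wild-type 2, and the difference of 0.44 (unadjusted p = 0.050 after rounding, adjusted p = 0.76 in limma) was 0.27 without wild-type 3. Dnajc8, a J-domain protein of the splicing machinery, had 643, 698, 661 and 715 in Myc-null against 550, 663 and 494 in wild-type hearts, a difference of 0.26 (0.17 without wild-type 3). Dnajc21, a factor of ribosome assembly, had 471, 548, 475 and 805 in Myc-null against 484, 476 and 172 in wild-type hearts. Its difference of 0.72 was 0.22 without wild-type 3. Dnajc2, which works on nascent chains at the ribosome, had 196, 160, 190 and 182 in Myc-null against 146, 201 and 3.35 in wild-type hearts. It was not detected on wild-type 3, where it was set to the floor of 58.2, and its difference of 0.60 was 0.08 without that array. Dnajc13, a protein of endosomes, had 292, 276, 300 and 260 in Myc-null against 272, 301 and 80.9 in wild-type hearts. Wild-type 1 and 2 lay at the level of the Myc-null arrays, and the difference of 0.58 was -0.02 without wild-type 3. These last 2 genes are named for their values on wild-type 3.

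The remaining cytosolic genes lay between -0.24 and 0.01. Hspb1, a small heat shock protein that protects the actin skeleton, had the lowest difference of the 32 genes at -0.24 (SE 0.21, and -0.33 without wild-type 3), with 9255, 6263, 8407 and 11604 in Myc-null against 10961, 10837 and 8954 in wild-type hearts. The groups overlapped, and Myc-null 2 was its lowest array. Fkbp4, an Hsp90 partner of steroid receptors, was 1 of 4 genes with their highest signal on wild-type 3 (the others were Dnajb12, Dnajc16 and Dnajc30), with 2092, 2180, 2117 and 2303 in Myc-null against 2198, 2267 and 3002 in wild-type hearts (-0.18, and -0.04 without wild-type 3). Dnajc5, Dnajc27, Hspbap1, Dnajb2 and Dnajc17 had differences of -0.14, -0.15, -0.08, -0.02 and 0.01, all with overlapping groups. Without wild-type 3 these were -0.20, -0.24, -0.09, -0.05 and -0.20. Co-chaperones of Hsp70 and Hsp90 and the heat shock factors had 9 of 11 tested genes higher in Myc-null hearts (of 29 listed), against 54.5% of all units, with a median of 0.18. Without wild-type 3 there were 8 of 11 and the median was 0.12, and 0 passed the adjusted threshold in limma. The Hsp90 co-chaperone Ptges3 (0.45, unadjusted p = 0.040, and 0.37 without wild-type 3) and Chordc1 (0.55, unadjusted p = 0.16, and 0.11 without it) had the smallest p values. Hspg2, the perlecan gene, differed by -0.12 (-0.11 without wild-type 3).

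Set side by side, the medians of the 3 compartments were furthest apart on wild-type 3. The median difference was -0.06 in the endoplasmic reticulum (n = 6), 0.42 in mitochondria (n = 5) and 0.14 in the cytosol (n = 20), against 0.09 over all 32 genes and 0.03 over all units. Without wild-type 3 these medians were 0.01, 0.03 and -0.02, against -0.01 over the 32 genes and 0.02 over all units. The median deviation on wild-type 3 was 0.01 for the endoplasmic reticulum, -0.63 for mitochondria and -0.42 for the cytosol. Single genes there ran from -0.83 (Hspa5) to 0.78 (Dnajc25) in the endoplasmic reticulum, so its median lay between opposite deviations. They ran from -1.57 (Hspa9) to 0.36 (Dnajc30) in mitochondria and from -3.26 (Hsp90aa1) to 0.45 (Fkbp4) in the cytosol. No test was made over the genes of a compartment, which share their arrays. The median half-width of the 95% interval of a single gene, which is not adjusted for the number of units, was 0.44. A smaller difference was thus mostly not detectable with 7 arrays, even before adjustment. The adjusted threshold asks for more, and Hspa5, with a difference of 0.88, did not pass it.

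**Figure D4:**
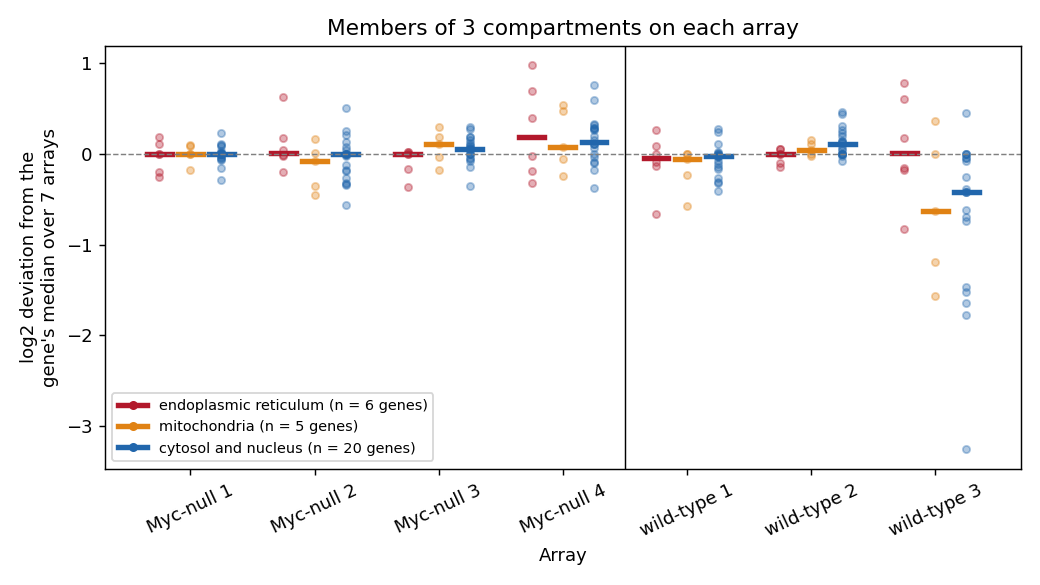
Log2 deviation of each gene from its median over 7 arrays (vertical axis) on each array, with Myc-null arrays left of wild-type arrays; points are genes, bars are the medians of 6 endoplasmic reticulum, 5 mitochondrial and 20 cytosolic genes. On wild-type 3 the mitochondrial and cytosolic medians are -0.63 and -0.42, while the endoplasmic reticulum median is 0.01.

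The other 16 genes were detected on none of the 7 arrays and were not tested, with signals between -35.8 and 54.8. They were Dnaja1, Dnaja2, Dnajb4, Dnajc6 and Hspa4l of the cytosol, Dnajb9, Dnajc1, Dnajc10 and Hspa13 of the endoplasmic reticulum, Dnajc11, Dnajc19 and Dnajc28 of mitochondria, and Cct8l1, Dnajc22, Hspa12a and the pseudogene Hspe1-ps2, which were not placed. Of the tested genes 30 were detected on all 7 arrays and 2, Dnajc2 and Dnajc27, on 6. A further 4 targets of tested genes, those of Hsp90aa1, Dnajc2 and Dnajc30, were detected on no array. The reference annotation holds 112 coding genes with these symbols, and 65 of them, among them every Pdia gene, Hsp90b1, Hspa1a and Hspa1b, carry no name on this array by the lookup used and were not analysed here. The comparison of the endoplasmic reticulum thus rests on 6 genes placed there and lacks the Pdia disulfide isomerases.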

How the data were processed

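RNA of 7 hearts (100 ng of total RNA per array, per the labels) was hybridised to Illumina mouse reference BeadChips. Each sample's own file gives, per the file headers, unnormalized signal intensity, a bead count per target and a detection score, a fraction between 0 and 1. Normalized signal intensity is in the authors' deposited matrix, made by the rank-invariant method per the labels, in BeadStudio (1.5.0.34 per the submitters' processing notes, 1.5.1.3 per the file headers). Deposited and raw intensity of an array lay on a line (slopes 0.809 to 1.43, residuals up to 0.113). A difference score per target comes from the authors' deposited table. The targets of the chaperone and folding genes had 16 to 68 beads (median 40), and precision is limited by having 7 arrays.

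The files carry no gene names. Where a target identifier has 1 or 2 zeros before its number, that number was looked up as an NCBI gene identifier in the RefSeq table of GRCm38.p6, which held 8884 of 9523 such numbers (93.3%). The names of the chaperone and folding genes all rest on this lookup. In all 8893 targets were named, a few of them by a RefSeq accession in the identifier. The 48 genes had 58 targets.

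Signals under a floor of 58.2 (5th percentile of detected targets on each array, median of the 7) were set to it before log2, so differences of dim genes are understated. Targets scoring 0.99 or more for detection on 3 or more arrays were tested, 9441 of 24048, and a gene was represented by its brightest passing target, which left 9066 units. Groups, taken from the titles, were set against each other in limma 3.58.1 under R 4.3.3 (group as the only term, 2-sided, Benjamini-Hochberg over all 9066 units, threshold 0.05, 95% intervals). Single values were also compared with an exact 2-sided permutation test. These steps were tested on simulated data. Normalization, floor, filter, targets per gene, samples, replicate block, array weights and the settings of eBayes were varied.

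The genes, lists, compartments and tests were chosen with earlier results of these data known. Named are Hspa5, Hsp90aa1, Hspg2 and every Cct gene, in each compartment the 5 genes with the smallest p and the 3 brightest, and in each other list the 2 genes with the smallest p. The others are given by value or count, and exceptions are marked. Promoters are from the RefSeq table of GRCm38.p6. A free-text label on pre-zygotic embryos contradicts the titles and was set aside.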

Additional observations from a re-analysis of the deposited data

Results flagged for a closer look

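Among 35 results looked at in the 4 Myc-null arrays, 1 had a sample far from the others, and chance alone gives about 1 in 20 such results. The median deviation of the 6 endoplasmic reticulum genes was 0.19 on Myc-null 4, while Myc-null 1 to 3 had 0 to 0.012 (log2 deviation from each gene's median over the 7 arrays). Dnajc25 (168 on Myc-null 4), Hspa5 (428) and Fkbp2 (1078) had their highest signals of any array there, while Dnajb12 (63.6) had its lowest.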

How the results depend on the processing

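No unit and no chaperone or folding gene had an adjusted p under 0.05 in limma with any of the 21 alternatives run, and 15 of the 32 genes kept the sign of their difference in all that gave a value. The number of the 32 genes at an unadjusted p under 0.05, 3 with all arrays, ran from 1 to 7 when 1 array was left out, and from 0 to 3 under the others. It was 0 without both wild-type 3 and Myc-null 2 (366 units), and 485 units became 311 to 718 when 1 array was left out. The endoplasmic reticulum median, -0.06, was -0.08 to 0.01 when 1 array was left out, -0.14 after median scaling and 0.034 without both arrays. The mitochondrial median, 0.42, was 0.032 to 0.71 when 1 array was left out, 0.063 without both arrays and 0.00 with no filter, which adds targets at the floor on every array. The cytosolic median, 0.14, was -0.02 to 0.29 when 1 array was left out. Apart from the arrays left out and the targets added, the cause was not tested. Deviations from the group means correlated between samples of the same replicate number at r = 0.17, -0.26 and -0.31 for numbers 1 to 3. These values cannot decide whether the numbers pair samples, because wild-type 3 and Myc-null 2 weigh on the group means. The labels name no pairing, and the numbers were not taken to pair samples. With the replicate number as a block, which drops Myc-null 4 because it has no partner, the difference of Hspa5 was 0.76 (adjusted p = 0.85 in limma, 0.54 to 0.97 over all alternatives), 0 units passed the adjusted threshold, 2 of the 32 genes and 370 units had an unadjusted p under 0.05, and the medians were -0.05, 0.38 and 0.14 in the endoplasmic reticulum, mitochondria and cytosol. The median of all units was 0.03 with the deposited scaling and -0.03 with quantile normalization, median scaling or neqc. Targets near background limit Dnajc27, Hspbap1 and Dnajb12, and of the listed genes P4ha3 and Grpel2 among others, whose signals lay close to the floor or under it.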
